A study of Mus musculus with 6 samples.

Results

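The genes described here are 32 that encode the folding, stress-sensing and disposal machinery of the endoplasmic reticulum (ER), measured in hearts of mice with and without Arrdc4. They were chosen by name and comprise BiP and its co-chaperones (10 genes), lectin chaperones (2), disulfide enzymes (6), sensors with the factors they activate (4), ER-associated degradation, or ERAD (8), and the translocon (2). All 32 were found among the 49315 genes of the count table, and all 32 passed the filter on low counts that left 14508 genes for testing, so no member was lost to it. The series holds whole-heart RNA from 3 wild-type mice and 3 mice carrying an Arrdc4 knockout made with CRISPR-Cas9, all on the C57BL/6 strain and with no treatment named. No promoter or tissue restriction of the knockout is named in the labels, and the sources used here do not give the age, sex or litter of the animals or how the libraries were spread over sequencing runs. Arrdc4 encodes an alpha-arrestin, an adaptor that brings ubiquitin ligases to membrane proteins. The p-values below measure the spread between these 6 hearts and nothing beyond it.

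As background, proteins bound for the membrane or for secretion enter the ER through the Sec61 channel and are folded there by BiP, by the sugar-binding chaperones calnexin and calreticulin, and by disulfide isomerases. When unfolded proteins pile up, the sensors IRE1, ATF6 and PERK start the unfolded protein response: IRE1 splices the mRNA of Xbp1, ATF6 is cut free from the membrane, and both routes raise transcription of chaperone and ERAD genes through ER stress response elements in their promoters. Proteins that fail to fold are pulled back to the cytosol by the ERAD ligase complex around SEL1L and HRD1 and degraded. In the heart the same response is known for its activation in hypertrophy and ischaemia.

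The libraries held 29974501 to 41036626 counted reads, with 20108 to 20959 genes detected and 21.8% to 27.7% of the counts on mitochondrial genes. Arrdc4 had 349, 307 and 281 counts in wild-type replicates 1 to 3 and 5, 1 and 2 counts in knockout replicates 1 to 3, a log2 fold change of -6.93 (SE 0.45, adjusted p = 0.00226, edgeR quasi-likelihood test), which goes with the labels; without knockout replicate 3 its adjusted p was 0.0519. All 12 cardiomyocyte markers checked passed the filter, with summed levels of 73890 to 87023 counts per 1000000 counted reads (CPM) in the 6 hearts, so the tissue label holds. Y-linked genes stood at 146 to 158 CPM in wild-type replicates 1 and 2 and knockout replicate 1 and at 1.19 to 2.24 CPM in the other hearts, so the genotypes differed in their mix of sexes, whose part in the values was not tested. Wild-type replicate 3 and knockout replicate 2 lay closer to each other than any other pair of libraries (chi-square per degree of freedom 7.31, the next smallest 24.7), and the main counts are given with and without them. The table is of bulk tissue, so fewer cells of a type and less RNA per cell cannot be told apart.

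The promoters show what the members share in sequence. RefSeq windows from 250 bases before to 50 bases after the annotated start (build GRCm38.p6) could be matched for 27 of the 32 members, 28 windows in all because Derl2 has 2; Hyou1, Manf, Atf6, Derl1 and Sec61a1 were not matched. Each window was searched on both strands for the ER stress response element ERSE (CCAAT, then 9 bases of any kind, then CCACG), for ERSE-II (ATTGG, then 1 base of any kind, then CCACG) and for the core of the unfolded protein response element (TGACGTGG). ERSE was found in 9 of 28 member windows (32.1%) against 39 of 32851 RefSeq windows of the same length (0.119%). ERSE-II was found in 2 of 28 (7.14%) against 12 of 32851 (0.0365%), and the TGACGTGG core in 0 of 28 against 222 of 32851 (0.676%). The shorter letters that ERSE contains are common: CCACG was in 78.6% of member windows and 32.8% of all, and CCAAT in 75.0% and 37.4%. These elements are known from promoters of chaperone and ERAD genes, and the members were chosen by name as such genes. The higher share among them is therefore a description and no independent result. The RefSeq windows were not matched to the members' in base composition. A match describes letters in a window and does not show that a factor binds there. Only exact matches were searched for, so a window without a match, or with 1, may hold further near copies of these elements. The matched stretches are shown because they are the sequence feature that 11 of the 27 members with a window share. They are written in the direction of the motif, with its fixed letters in capitals.
Hspa5 ERSE: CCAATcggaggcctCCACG
Hsp90b1 ERSE, distal: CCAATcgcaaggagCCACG
Hsp90b1 ERSE, proximal: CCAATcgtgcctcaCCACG
Dnajc3 ERSE: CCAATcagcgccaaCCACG
Creld2 ERSE: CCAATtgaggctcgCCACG
Calr ERSE: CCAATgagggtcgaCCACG
Canx ERSE: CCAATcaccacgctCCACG
Pdia6 ERSE: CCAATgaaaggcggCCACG
Ero1lb ERSE: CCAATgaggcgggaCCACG
Syvn1 ERSE: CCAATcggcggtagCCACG
Dnajb11 ERSE-II: ATTGGcCCACG
Herpud1 ERSE-II: ATTGGgCCACG
The first base of the match lay 65 bases before the start in Hspa5, 212 and 107 bases before it in Hsp90b1, 52 bases before it in Herpud1 and 44 bases before it in Syvn1. In Dnajb11 it lay 7 bases past the start. The 9 bases between CCAAT and CCACG differed from gene to gene, while their number is fixed by the motif.

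**Figure D1:**
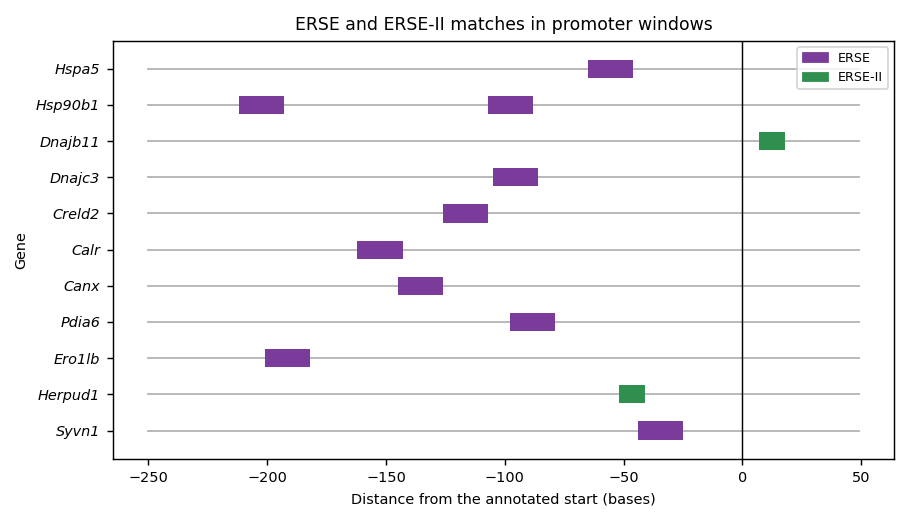
Position of each ERSE (purple) and ERSE-II (green) match in the promoter windows of the 11 members that hold one, as distance in bases from the annotated start, with grey lines for the windows. All matches but that of Dnajb11 lie upstream of the start, from 212 to 44 bases before it.

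The 250 bases before the start are given for 4 members that the results turn on, with the matched stretch in capitals. Hspa5 is the most abundant member and holds 1 exact ERSE match. Hsp90b1 is the member with a pair of exact matches. Herpud1 holds ERSE-II. Sdf2l1, whose level varied most from heart to heart among the members with a window, holds no exact match to these motifs.
Hspa5, chr2:34771840-34772089, plus strand: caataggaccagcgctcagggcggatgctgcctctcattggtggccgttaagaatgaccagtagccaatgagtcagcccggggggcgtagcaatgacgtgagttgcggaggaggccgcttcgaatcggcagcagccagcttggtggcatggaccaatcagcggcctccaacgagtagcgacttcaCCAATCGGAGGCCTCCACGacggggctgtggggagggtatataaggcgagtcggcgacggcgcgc
Hsp90b1, chr10:86705445-86705694, minus strand: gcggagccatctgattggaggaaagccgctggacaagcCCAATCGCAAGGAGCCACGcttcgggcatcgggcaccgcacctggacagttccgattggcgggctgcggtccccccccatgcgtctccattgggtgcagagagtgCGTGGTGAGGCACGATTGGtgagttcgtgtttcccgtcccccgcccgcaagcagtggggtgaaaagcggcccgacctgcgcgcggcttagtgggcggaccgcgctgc
Herpud1, chr8:94386179-94386428, plus strand: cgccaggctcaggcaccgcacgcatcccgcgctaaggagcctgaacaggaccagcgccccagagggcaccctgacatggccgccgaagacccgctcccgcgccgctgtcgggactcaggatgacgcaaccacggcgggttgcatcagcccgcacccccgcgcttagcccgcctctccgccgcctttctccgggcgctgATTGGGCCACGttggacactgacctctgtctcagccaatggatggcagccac
Sdf2l1, chr16:17132384-17132633, minus strand: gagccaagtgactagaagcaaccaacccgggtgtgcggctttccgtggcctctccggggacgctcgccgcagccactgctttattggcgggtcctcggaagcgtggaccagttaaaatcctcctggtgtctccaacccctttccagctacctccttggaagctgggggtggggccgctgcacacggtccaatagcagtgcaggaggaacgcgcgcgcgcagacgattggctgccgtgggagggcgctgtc
In Hsp90b1 the second stretch in capitals is the motif on the opposite strand.

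None of the 32 genes differed in level between knockout and wild-type hearts at an adjusted p under 0.05 in edgeR's quasi-likelihood test. Among all 14508 genes tested, 0.00689% were called, which is Arrdc4 alone. Of the members 14 were higher and 18 lower in the knockout, with a median log2 fold change of -0.0016, beside 0.0092 over all genes tested. Unadjusted p-values under 0.05 were found for 0 members and for 1.23% of all genes. DESeq2 and limma-voom also called 0 members. The smallest unadjusted p of a member was 0.313, for Edem1, and its adjusted p in edgeR was 1.0. In 0 of the 32 did all 3 knockout values lie on one side of all 3 wild-type values, beside 4.07% of all genes tested.

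The intervals bound what these hearts could have missed. For 30 of 32 members the 95% interval left no room for a 2-fold difference, up or down, beside 76.4% of all genes tested, and the exceptions were Manf and Sdf2l1. A 1.5-fold difference was excluded for 21 of 32, beside 39.7% of all genes. The median SE of the log2 fold change was 0.196 over the members and 0.23 over all genes, and the lowest count of any member in any library was 62. For the other 11 members a 1.5-fold difference was not excluded with 3 hearts per genotype.

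**Figure D2:**
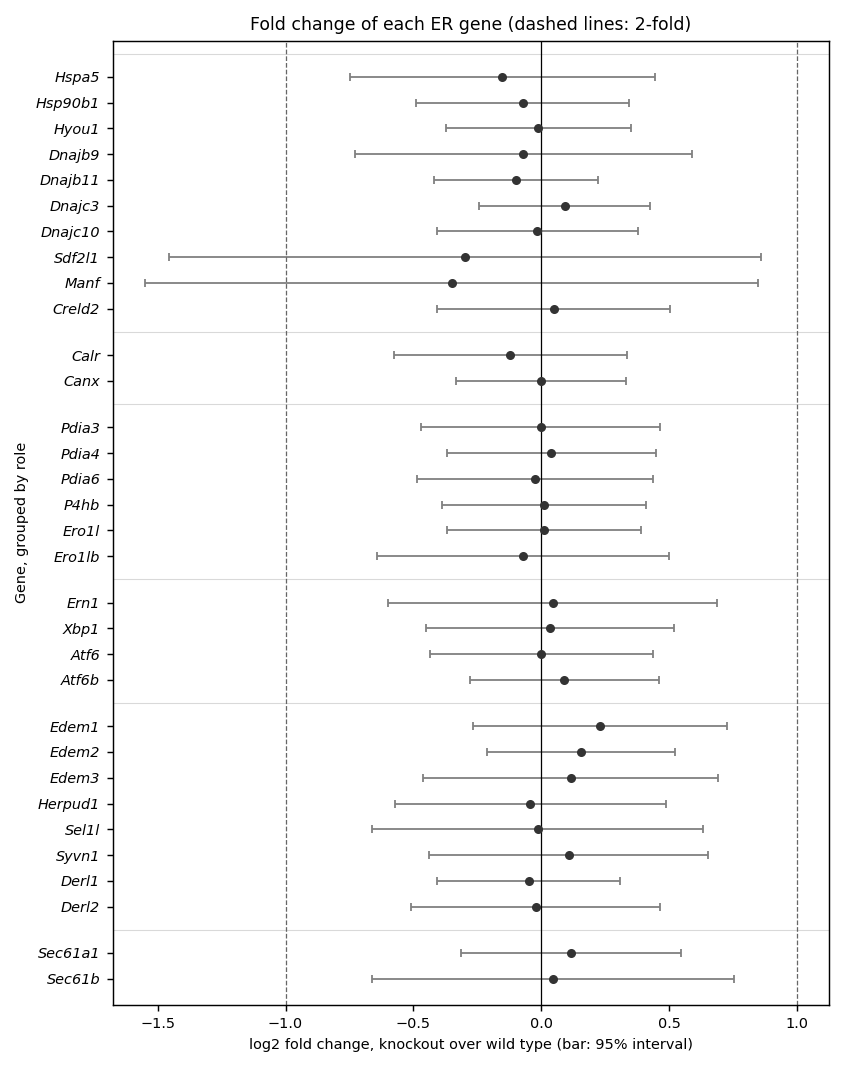
Log2 fold change of each of the 32 members, knockout over wild type (points), with its 95% interval from edgeR (bars) and dashed lines at a 2-fold difference. All intervals include 0, and the bars of Sdf2l1 and Manf alone cross a dashed line.

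Per kilobase of annotated exon the members covered a wide range of levels. Hspa5 was highest, at 149 CPM per kb (mean of 6 hearts), above 98.1% of the genes tested. Calr followed at 104, P4hb at 78.4, Hsp90b1 at 70.4, Herpud1 at 66.6, Canx at 52.1 and Pdia3 at 42.7 CPM per kb. These 7 members lay above the 90th percentile of tested genes. The lowest was Ero1lb, at 0.398 CPM per kb, above 16.6% of tested genes, preceded by Edem1 at 1.23 and Ern1 at 1.48 CPM per kb. The catalogue thus runs from the bulk chaperones of the ER lumen, near the top of the heart's transcripts, to the oxidase gene Ero1lb. The genes of the sensor kinase IRE1 and the mannosidase-like EDEM1 lay above 38.4% and 34.8% of tested genes.

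**Figure D3:**
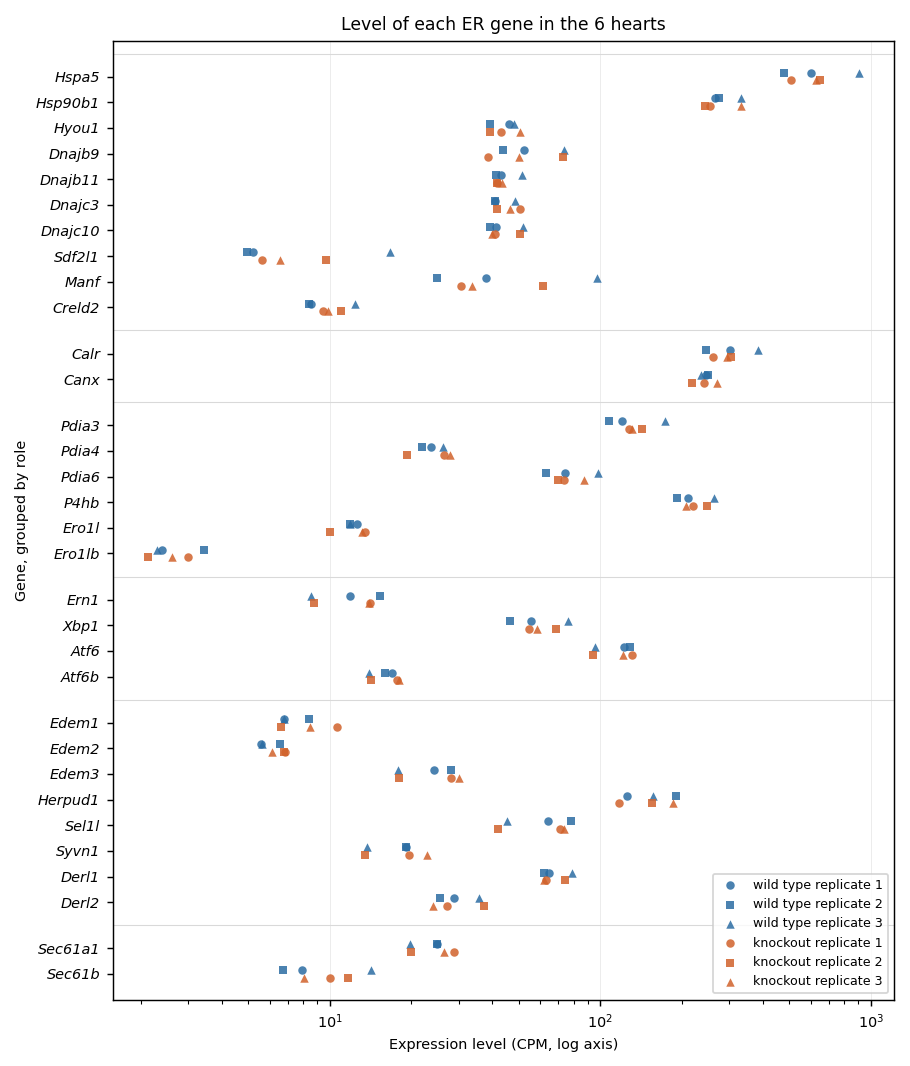
Level of each member in each of the 6 hearts, in CPM on a log axis, with genes grouped by role from top to bottom (BiP and co-chaperones, lectins, disulfide enzymes, sensors, ERAD, translocon). Blue is wild type and orange knockout, and the symbol gives the replicate. The colours overlap in every gene, and wild-type replicate 3 (blue triangle) stands far to the right for Sdf2l1 and Manf.

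Of the 10 genes of BiP and its co-chaperones, 8 were lower and 2 higher in the knockout by their means, none past the test, with a median log2 fold change of -0.07. Without wild-type replicate 3 and knockout replicate 2 the split turned to 8 higher and 2 lower, again with none past the test, and the median to 0.08. Hspa5 (ENSMUSG00000026864, chromosome 2, 34771970 to 34777547, plus strand) encodes BiP, the HSP70-type chaperone that also holds the sensors inactive. It stood at 601, 479 and 905 CPM in wild-type replicates 1 to 3 and at 506, 652 and 628 CPM in knockout replicates 1 to 3. The 3 knockout values lay inside the wild-type range, which wild-type replicate 3 stretched upward. The means were 662 ± 219.5 and 596 ± 78.1 CPM (SD, n = 3 each), a log2 fold change of -0.15 (SE 0.25, 95% interval -0.75 to 0.45). Hsp90b1, encoding the ER's HSP90-type chaperone GRP94, had 267, 275 and 331 CPM in wild type and 254, 244 and 331 CPM in knockout. The highest heart of each genotype matched, and the log2 fold change was -0.07 (SE 0.18).

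Manf (ENSMUSG00000032575, chromosome 9, 106838312 to 106891979, minus strand) encodes a small BiP-binding protein that is also secreted. It stood at 38.0, 24.9 and 97.2 CPM in wild-type replicates 1 to 3 and at 30.7, 61.4 and 33.6 CPM in knockout replicates 1 to 3. The highest wild-type heart was 3.91 times the lowest, the widest range of any member, and both extremes were wild type. The log2 fold change was -0.35 (SE 0.51, 95% interval -1.55 to 0.85). It turned to 0.41 without wild-type replicate 3 and was 0.02 (SE 0.20) without both that heart and knockout replicate 2, so no direction can be read. Annotated exons of Manf overlap those of Dcaf1, Rbm15b and 4930524O07Rik, and its count is uncertain where reads can be shared.

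Sdf2l1 (ENSMUSG00000022769, chromosome 16, 17130138 to 17132383, minus strand), a partner of ER J-domain proteins, followed the same order of hearts at the top. It had 5.19, 4.95 and 16.7 CPM in wild type and 5.62, 9.72 and 6.55 CPM in knockout. Wild-type replicate 3 was 3.37 times the lowest heart, and knockout replicate 2 was second. Its log2 fold change was -0.30 (SE 0.49) with all hearts, 0.52 without wild-type replicate 3 and 0.25 (SE 0.18) without the pair.

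The J-domain proteins, which bring clients to BiP and drive its ATP cycle, spread less. Dnajb9, encoding ERdj4, had 52.3, 43.8 and 73.3 CPM in wild type and 38.5, 72.8 and 50.2 CPM in knockout. Here a knockout heart was lowest and wild-type replicate 3 and knockout replicate 2 were nearly equal at the top, and the log2 fold change was -0.07 (SE 0.28). Dnajb11, encoding ERdj3, ranged from 41.1 to 51.5 CPM, Dnajc3, encoding the co-chaperone P58IPK, from 40.8 to 50.5 CPM, and Dnajc10, encoding the reductase ERdj5, from 39.1 to 51.8 CPM over the 6 hearts. Their log2 fold changes were -0.10 (SE 0.14), 0.09 (SE 0.14) and -0.01 (SE 0.17), and these 3 genes and Hyou1 excluded a 1.5-fold difference. Hyou1, the nucleotide exchange factor of BiP, had means of 44.5 ± 4.71 and 44.2 ± 5.83 CPM (SD, n = 3 each) in wild type and knockout. Creld2, an ER-resident gene of the stress response, had 8.54, 8.39 and 12.4 CPM in wild type and 9.45, 11.0 and 9.87 CPM in knockout, with a log2 fold change of 0.05 (SE 0.19).

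Both lectin chaperones had means that differed by less than the wild-type SD, and both turned from lower to higher in the knockout, none past the test, when the same 2 hearts were left out. Calr encodes calreticulin, the soluble lectin that also binds calcium, and had 303, 246 and 385 CPM in wild type and 260.4, 304 and 295 CPM in knockout. All 3 knockout hearts lay within the wild-type range, with a log2 fold change of -0.12 (SE 0.19). Canx encodes the membrane-bound calnexin, and its means were 244 ± 7.28 and 244 ± 25.2 CPM (SD, n = 3 each), with a log2 fold change of -0.0011 (SE 0.14, 95% interval -0.33 to 0.33). It had the narrowest range over the 6 hearts among the abundant members, the highest heart being 1.23 times the lowest.

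The 6 disulfide enzymes split evenly, 3 higher and 3 lower, with a median log2 fold change of 0.0043, and became 5 higher and 1 lower without wild-type replicate 3 and knockout replicate 2. Pdia3, the oxidoreductase that works with calnexin and calreticulin, had 121, 108 and 173 CPM in wild type and 128, 143 and 131 CPM in knockout. P4hb, the classical protein disulfide isomerase, had 212, 193 and 265 CPM in wild type and 220.2, 248 and 207 CPM in knockout. In both, wild-type replicate 3 was highest and wild-type replicate 2 lowest, and the knockout hearts lay between them. Pdia6 ranged from 62.8 to 98.4 CPM and Pdia4 from 19.4 to 27.9 CPM over the 6 hearts, with log2 fold changes of -0.02 (SE 0.20) and 0.04 (SE 0.17). Ero1l and Ero1lb, which encode the oxidases that recharge the isomerases, had means of 12.2 ± 0.436 and 12.2 ± 1.92 CPM, and of 2.71 ± 0.628 and 2.58 ± 0.426 CPM (SD, n = 3 each), in wild type and knockout. Their log2 fold changes were 0.01 (SE 0.16) and -0.07 (SE 0.24).

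Among the sensors and the factors they activate, 3 genes were higher and 1 lower in the knockout, none past the test. The split was again 3 and 1 without wild-type replicate 3 and knockout replicate 2. Ern1, which encodes the kinase and ribonuclease IRE1, had 11.9, 15.4 and 8.51 CPM in wild type and 14.1, 8.75 and 14.0 CPM in knockout. Wild-type replicate 3 and knockout replicate 2 were its lowest hearts, the reverse of Hspa5 and Manf. Xbp1, the target of IRE1's ribonuclease, had 55.5, 46.3 and 75.9 CPM in wild type and 54.7, 68.8 and 58.4 CPM in knockout, with the same hearts highest and a log2 fold change of 0.03 (SE 0.21). Gene-level counts do not separate its spliced from its unspliced mRNA, so splicing was not measured. Atf6 had 123, 129 and 95.8 CPM in wild type and 131, 94.4 and 122 CPM in knockout, and its fold change was the closest to 0 of all members, at -0.00020 (SE 0.19). Atf6b, its paralogue, had 17.0, 16.0 and 14.0 CPM and 17.8, 14.2 and 18.0 CPM, with a log2 fold change of 0.09 (SE 0.16). Its sign was positive in this fit and in its 16 alternatives.

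The 8 ERAD genes were 4 higher and 4 lower, with a median log2 fold change of 0.05. Leaving out wild-type replicate 3 and knockout replicate 2 gave 5 higher and 3 lower, with the median again 0.05. Edem1 (ENSMUSG00000030104, chromosome 6, 108828641 to 108859356, plus strand) encodes a mannosidase-like protein that marks misfolded glycoproteins for disposal, and it had the smallest p of the members. It stood at 6.77, 8.36 and 6.80 CPM in wild type and at 10.6, 6.58 and 8.48 CPM in knockout. One knockout heart was highest and another lowest, so the genotypes overlapped across the whole range. The log2 fold change was 0.23 (SE 0.21, 95% interval -0.27 to 0.73), and its smallest adjusted p over the 16 alternative fits was 0.613, without knockout replicate 2. Edem2, with means of 5.92 ± 0.57 and 6.59 ± 0.403 CPM, and Edem3, with 23.5 ± 5.17 and 25.4 ± 6.48 CPM (SD, n = 3 each), had log2 fold changes of 0.15 (SE 0.16) and 0.12 (SE 0.25).

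Herpud1, whose membrane protein organises the ERAD ligase complex, had 126, 191 and 156 CPM in wild type and 118, 156 and 186 CPM in knockout. Its hearts were ordered unlike those of Hspa5, with wild-type replicate 2 and knockout replicate 3 highest, and its log2 fold change was -0.04 (SE 0.23). Sel1l, the adaptor of the ligase, had 64.3, 78.2 and 45.3 CPM in wild type and 70.9, 41.8 and 73.2 CPM in knockout. Syvn1, which encodes the ligase HRD1 itself, ranged from 13.5 to 23.0 CPM, with the same 2 hearts lowest as in Sel1l. Derl1 and Derl2, which encode derlins of the retrotranslocation channel, ranged from 61.8 to 78.7 CPM and from 24.2 to 37.2 CPM, with those 2 hearts highest. The log2 fold changes of these 4 genes were -0.01 (SE 0.28), 0.11 (SE 0.23), -0.05 (SE 0.15) and -0.02 (SE 0.21).

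For the translocon, Sec61a1, the channel-forming subunit, had 24.9, 25.0 and 19.8 CPM in wild type and 28.9, 20.0 and 26.5 CPM in knockout, a log2 fold change of 0.11 (SE 0.18). Sec61b, a small accessory subunit, had 7.91, 6.71 and 14.2 CPM in wild type and 10.1, 11.7 and 8.06 CPM in knockout, a log2 fold change of 0.05 (SE 0.30). Wild-type replicate 3 and knockout replicate 2 were thus the lowest hearts for Sec61a1 and the highest for Sec61b. Of the other hearts knockout replicate 1 was highest for both subunits. Both fold changes stayed positive without wild-type replicate 3 and knockout replicate 2. Besides Manf, 8 further members share annotated exon bases with another gene, and their counts are uncertain in the same way: Hsp90b1, Dnajb9, Pdia3, Pdia4, Pdia6, Syvn1, Derl2 and Sec61a1.

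Differences between hearts of 1 genotype ran along the same hearts in many members. Wild-type replicate 3 was the highest heart for 14 of 32 members and wild-type replicate 2 the lowest for 13. Over all genes tested these hearts were highest for 19.0% and lowest for 14.9%. Within BiP and its co-chaperones wild-type replicate 3 was highest for 7 of 10 and wild-type replicate 2 lowest for 7 of 10. The summed level of the 32 genes was 2719, 2551 and 3421 CPM in wild-type replicates 1 to 3 and 2590, 2812 and 2933 CPM in knockout replicates 1 to 3. The range of a member was nonetheless ordinary: the highest heart was 1.55 times the lowest for the median member and 1.65 times for the median gene tested, and only Manf, Sdf2l1 and Sec61b exceeded 2 times.

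Wild-type replicate 3 and knockout replicate 2 were the 2 highest hearts for 13 members (40.6%), beside 29.4% of all genes tested. They were the 2 lowest for 10 members (31.3%), near the 29.0% of all genes tested. Together these are 23 of 32 or 71.9%, beside 58.4% of all genes tested. The 13 with both highest were Hspa5, Dnajb9, Dnajc10, Sdf2l1, Manf, Creld2, Calr, Pdia3, P4hb, Xbp1, Derl1, Derl2 and Sec61b. Of these, 9 are chaperones, co-chaperones or isomerases. Hsp90b1, Hyou1, Dnajb11, Dnajc3, Canx, Pdia4 and Pdia6 belong to the same classes and were not among the 13. The 10 with both lowest were Canx, Ero1l, Ero1lb, Ern1, Atf6, Atf6b, Edem3, Sel1l, Syvn1 and Sec61a1. The same hearts also differed from the rest by gene length across the whole table. In genes with under 2 kb of exon the median deviation from the mean of the 6 hearts was 0.31 (log2) in both wild-type replicate 3 and knockout replicate 2, and in genes over 6 kb it was -0.19 and -0.18. Among members the 9 genes over 6 kb had median deviations of -0.26 and -0.28 in these hearts, and the 3 under 2 kb had 0.58 and 0.30. Manf, at 3.52 kb, deviated by 1.20 and 0.53 in these hearts. Derl2, at 8.05 kb, was high in them and Atf6b, at 2.76 kb, low, unlike the median member of their annotated length class. These lengths join every annotated exon of a gene, and the length of the transcripts present in the hearts was not measured. When the fit carried an offset for how each library deviated with exon length, 0 members were called and the median log2 fold change was -0.04; the part of length in the order of hearts was not tested further.

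**Figure D4:**
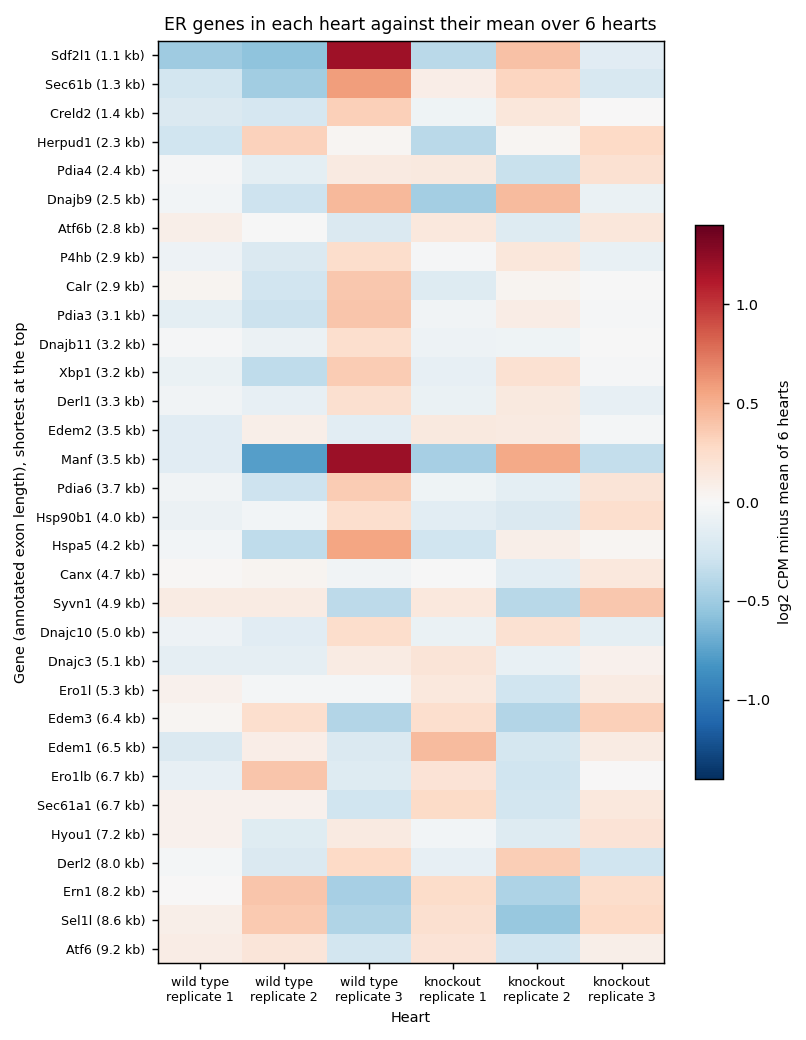
Deviation of each member in each heart from its mean over the 6 hearts (log2 CPM, red above and blue below), with genes ordered by annotated exon length from the shortest at the top. Wild-type replicate 3 and knockout replicate 2 are red for many of the shorter genes and blue for most of the longest, and the deepest red cells are Sdf2l1 and Manf in wild-type replicate 3, near 1.2.

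Leaving out both of these hearts narrowed the spread, from a biological coefficient of variation of 24.2% to 15.1% over all genes, and moved the members upward. Of the hearts kept, knockout replicate 3 alone had low Y-linked levels (1.81 CPM). The mix of sexes thus still differed between genotypes, and its part in the shift was not tested. With 2 hearts per genotype 25 members were higher and 7 lower in the knockout, with a median log2 fold change of 0.09, beside -0.0013 over all genes tested. With 1 heart left out, members without overlap numbered 0 when this was wild-type replicate 1 (7.42% of all genes), 1 when it was wild-type replicate 2 (10.6%) and 5 when it was wild-type replicate 3 (11.8%). They numbered 0 without knockout replicate 1 (8.69% of all genes), 6 without knockout replicate 2 (29.3%) and 2 without knockout replicate 3 (8.27%). With both hearts left out none passed the test, and 0 had an unadjusted p under 0.05. In 11 of 32 members (34.4%) the genotypes no longer overlapped, beside 38.0% of all genes tested in that design. Edem1 stood at 0.33 (SE 0.19), Sec61b at 0.30 (SE 0.18), Sdf2l1 at 0.25 (SE 0.18), Pdia4 at 0.24 (SE 0.12) and Dnajc3 at 0.24 (SE 0.11, unadjusted p = 0.065, adjusted p = 0.753, edgeR). Hspa5 moved from -0.15 to 0.06 (SE 0.17). Since the sign of Hspa5, Manf, Sdf2l1 and further members turned on these 2 hearts, no direction for the group is read from either fit.

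**Figure D5:**
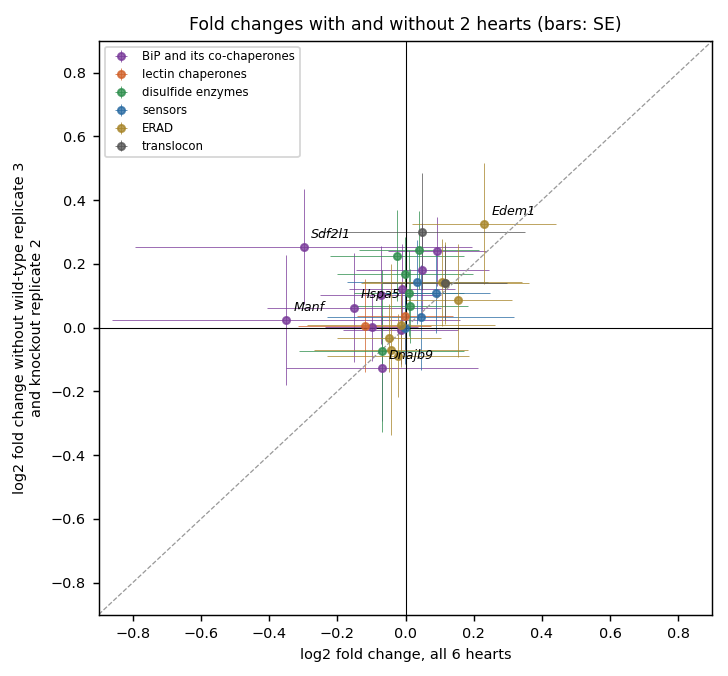
Log2 fold change of each member with all 6 hearts (horizontal axis) and without wild-type replicate 3 and knockout replicate 2 (vertical axis), with SE bars and colours for roles. Most points lie above the dashed line of equality, and Manf and Sdf2l1 move the farthest, from -0.35 and -0.30 to 0.02 and 0.25.

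The promoter classes could be set beside these values. The 11 members with ERSE or ERSE-II had a median log2 fold change of -0.04, from -0.15 to 0.11, with 3 higher and 8 lower in the knockout. The 16 members with a window but no exact match to either motif had a median of 0.02, from -0.30 to 0.23. Of these, 10 were higher and 6 lower. Without wild-type replicate 3 and knockout replicate 2 these counts became 9 higher and 2 lower with a motif and 13 higher and 3 lower with neither. The highest heart was 1.56 times the lowest for the median gene of the first class and 1.61 times for the second, and wild-type replicate 3 was highest for 5 of 11 and 7 of 16. The classes overlapped in both measures. Outside the members, 14 tested genes held ERSE or ERSE-II, among them Nucb1, Krtcap2 and Alg12, named here after their values were seen. Of these, 0 passed the test, 5 were higher and 9 lower, and their median log2 fold change was -0.03. Without the same 2 hearts 8 were higher and 6 lower.

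The pathway's other genes were read from 8 lists beside the members, and 0 genes in any list passed edgeR's test in either direction, while 1, Ddit4, had an unadjusted p under 0.05. DESeq2 and limma-voom each called 1 gene of the whole table, Arrdc4. The PERK branch slows translation and induces Atf4 targets. Its list had 14 tested genes, 10 higher and 4 lower in the knockout, with a median log2 fold change of 0.10. Without wild-type replicate 3 and knockout replicate 2 it was 9 higher and 5 lower, none past the test, and the median was 0.21. With all hearts the smallest p in this list belonged to Ddit4, a stress-induced inhibitor of mTORC1. Ddit4 had 51.1, 77.7 and 72.1 CPM in wild type and 24.4, 55.6 and 39.6 CPM in knockout. The ranges overlapped, and the log2 fold change was -0.75 (SE 0.31, unadjusted p = 0.044, adjusted p = 1, edgeR). Ddit3, encoding the transcription factor CHOP, had 9.94, 7.16 and 10.3 CPM in wild type and 10.5, 11.6 and 13.7 CPM in knockout. Each knockout heart was above each wild-type heart, and the log2 fold change was 0.38 (SE 0.19). Its unadjusted p was not under 0.05 in edgeR's test. The genotypes did not overlap, in either direction, for 2 of the 14 genes of this list and 4.07% of all genes tested.

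The sensors' processing enzymes and regulators, 11 genes, were 7 higher and 4 lower, also without wild-type replicate 3 and knockout replicate 2. The smallest p belonged to Creb3l1 (0.65, SE 0.35) and Creb3l2 (0.31, SE 0.25), membrane-bound factors related to ATF6. Further oxidative folding genes, 14 of 15 tested, were 8 higher and 6 lower (7 and 7 without the same 2 hearts). Among them the isomerase Pdia5 had 2.73 ± 0.174 CPM in wild type and 3.46 ± 0.229 CPM in knockout (SD, n = 3 each) without overlap. This held, in either direction, for 2 of the 14 genes, beside 4.07% of all genes tested. Vkorc1, which recycles vitamin K, had a log2 fold change of 0.16 (SE 0.14). Glycoprotein quality control, 9 of 10 tested, was 5 higher and 4 lower (7 and 2 without wild-type replicate 3 and knockout replicate 2), with the glucosidase Mogs (0.26, SE 0.17) and the mannosidase Man1b1 (0.14, SE 0.13) named by the smallest p. Further ERAD genes, 21 of 22 tested, were 8 higher and 13 lower, both with all hearts and without the same 2. They were led by the deglycosylase Ngly1 (-0.14, SE 0.12) and the ubiquitin-conjugating enzyme Ube2g2 (-0.15, SE 0.16). Genes of ER entry and N-glycosylation, 27 tested, were 4 higher and 23 lower, yet their median was only -0.03, and the smallest p belonged to Stt3a (0.22, SE 0.18) and Rpn2 (0.16, SE 0.18), both subunits of the oligosaccharyltransferase and both higher. The summed level of this list was 1273 to 1618 CPM in wild type and 1297 to 1573 CPM in knockout, highest again in wild-type replicate 3 and knockout replicate 2, and without these hearts the list was 9 higher and 18 lower with a median of -0.04.

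Cytosolic heat shock genes, a stress response outside the ER, were 3 higher and 8 lower of 11. Without wild-type replicate 3 and knockout replicate 2 they were 4 higher and 7 lower. Hspa1b stood at 0.71 (SE 0.36) and Hspb1 at -0.23 (SE 0.14). Collagen-folding genes of the ER, 12 of 13 tested, were 8 higher and 4 lower (9 and 3 without those 2 hearts). Crtap (0.30, SE 0.19) and P3h3 (0.52, SE 0.34) led this list. Markers of fibroblasts, the collagen-making cells, were higher in 9 of 10 genes, with a median log2 fold change of 0.56. None passed the test, and 1 had an unadjusted p under 0.05 in edgeR. Their summed level was 608 to 841 CPM in wild type and 1351, 509.8 and 975 CPM in knockout replicates 1 to 3. With wild-type replicate 3 and knockout replicate 2 left out, 10 of 10 were higher. Knockout replicate 1 was highest for the fibroblast markers and for Crtap and P3h3, and the part of cell makeup in these values was not tested. Plasma cells, which carry much ER, were scarce: 6 of their 10 markers passed the filter, all 6 higher in the knockout by their means and none past the test, and the list summed to 12.4 to 23.6 CPM in the 6 hearts. Epicardial markers were higher in 9 of 9 genes and highest in knockout replicate 1, with summed levels of 7.7 to 14.2 CPM in wild type and 6.2 to 38.7 CPM in knockout, which overlapped. Macrophage markers were higher in 9 of 10 genes, endothelial markers in 6 of 10 and smooth muscle and pericyte markers in 7 of 9, none past the test. Their sums overlapped between genotypes, with summed levels of 859 to 1053 and 831 to 1141 CPM for endothelium and 281 to 328 and 236 to 459 CPM for macrophages in wild type and knockout.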

How the data were processed

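RNA from 6 hearts was made into libraries with a NEBNext Ultra II RNA kit after Qiagen column extraction, per the labels' protocols. The deposited table holds raw read counts per Ensembl gene, as whole numbers. The submitters' processing notes name STAR, featureCounts, Subread 1.5.2, DESeq2 and the build GRCm38.p6. How each was used, which annotation was counted, whether strand was used and how multi-mapping reads were handled is not given in the sources used here. Reads shared by overlapping genes therefore cannot be assigned with certainty.

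Counts were filtered with filterByExpr (minimum count 10, minimum total 15), scaled by TMM and fitted with edgeR 4.0.16 (quasi-likelihood F test, R 4.3.3), with genotype as the only term. P-values were adjusted by Benjamini-Hochberg over all 14508 genes tested, with 0.05 as the threshold. CPM are counts per 1000000 of the TMM-scaled library size. Exon lengths and overlaps came from the GENCODE annotation of the same build, and promoter windows from RefSeq. All 225 list genes were matched. The code was tested on simulated data first.

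The members and the lists were chosen with earlier results of these data known. Any member could be named; of the other pathway lists, the 2 genes with the smallest unadjusted p were named. Alternatives were DESeq2 1.42.0, limma-voom (limma 3.58.1), robust estimation, other scalings and filters, each heart left out, wild-type replicate 3 and knockout replicate 2 left out together, the replicate block and, added after seeing the data, an offset for exon length. In that offset each library's deviation was smoothed against log exon length by a spline with 6 degrees of freedom.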

Additional observations from a re-analysis of the deposited data

How the results depend on the processing

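No member was called in any of the 16 alternative fits, and the median log2 fold change of the members stayed between -0.07 and 0.09. Over all genes tested, the 1 call became 0 without knockout replicate 3, where Arrdc4 had an adjusted p of 0.0519 in edgeR, and 2 with wild-type replicate 3 and knockout replicate 2 both left out; leaving out 1 heart at a time gave 0 to 1 calls. Members whose genotypes did not overlap numbered 0 to 6 with 1 heart left out and 11 with both left out; fewer samples make overlap rarer by construction. With the replicate block the calls over all genes went from 1 to 0 (Arrdc4 adjusted p = 0.0507, edgeR) and the members' median was -0.00. Same-numbered deviations from the genotype means correlated at 0.18, -0.65 and -0.40, and of the wild-type hearts replicate 1 alone correlated best with its own number. Wild-type replicate 3 and knockout replicate 2 correlated at 0.68. With 3 hearts per genotype, this shared deviation weighs on the other correlations. The check therefore cannot show whether the hearts were paired. Of 512 member values, 11 moved by more than 1 SE, 7 of them without wild-type replicate 3 and 4 with both hearts left out. Dnajc3, Atf6b, Edem1, Edem2 and Sec61a1 kept 1 sign in all of them. With library size alone as the scaling, 20 members were higher and 12 lower, beside 14 and 18 with TMM. The lowest member count in a library was 62, and with 3 hearts per genotype a 1.5-fold difference was not excluded for 11 members.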
